A study of Rattus norvegicus with 16 samples.

Results

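The genes described here carry glucose carbon through glycolysis, lactate and the citric acid cycle. They are 41 listed genes out of 16514 gene symbols in the deposited tables, taken by symbol, with the locus of the highest mean level standing for a symbol that has several loci. RNA sequencing was done on the hypothalamus and the hippocampus of male Sprague Dawley rats, with 4 samples per group and region in the labels. The groups are hypothalamus with fructose feeding for 6 weeks, untreated hypothalamus, hippocampus with the same 6 weeks of fructose, and untreated hippocampus. All are of one outbred stock with no engineered allele named, and the labels give neither the age of the rats, nor the fructose dose, nor whether each sample is a separate rat, so every p reflects the spread of these samples alone, which may be technical. The tables hold 15 libraries: 3 fructose and 4 control libraries of hypothalamus, with no column for fructose replicate 4, and 4 fructose and 4 control libraries of hippocampus.

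Glycolysis splits glucose into pyruvate in the cytosol. Pyruvate is either reduced to lactate or carried into the mitochondrion, where the pyruvate dehydrogenase complex turns it into acetyl-CoA for the citric acid cycle. In brain, glucose is the main fuel, astrocytes are known for strong glycolysis, and lactate moves between cells through monocarboxylate transporters. Fructose enters the same route below the hexokinase step when it is phosphorylated by ketohexokinase, or is phosphorylated by hexokinase itself.

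Of the 41 genes, 38 had a locus in each table, and 36 reached a mean of at least 1 FPKM (fragments per kilobase of transcript and per size of the library, a level scaled for length and depth) in hypothalamus and 36 in hippocampus. Fumarase (Fh1), pyruvate carboxylase (Pcx) and the isocitrate dehydrogenase subunit Idh3b are not listed under these symbols. In RefSeq, Fh1 and Pcx are synonyms of Fh and Pc, which both tables list and which are kept outside the counts. Fh was at 46.8 ± 13.7 FPKM in fructose and 47.1 ± 6.34 FPKM in control hypothalamus, and Pc at 42.8 ± 3.25 and 42.6 ± 4.92 FPKM (SD, n = 3 and 4). In hippocampus Fh was at 47.5 ± 5.47 FPKM with fructose and 46.9 ± 5.77 FPKM in controls, and Pc at 32.3 ± 2.98 and 31.95 ± 3.90 FPKM (SD, n = 4 each). Neither differed between the groups beyond the spread of the samples.

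The regional labels were checked with marker genes. The summed level of 8 hypothalamic markers, among them Hcrt, Pomc and Agrp, was 3315 to 6633 FPKM in fructose and 4713 to 8909 FPKM in control hypothalamus, against 3.79 to 28.6 FPKM and 4.25 to 9.29 FPKM in hippocampus. Read counts are not in the tables, so depth is unknown. The libraries numbered 1 stand apart in both groups of each region. In hypothalamus the log2 levels of the replicate 1 libraries correlated at 0.98 with each other across loci and at 0.880 to 0.909 with the rest, while the rest correlated at 0.956 to 0.979. The same values in hippocampus were 0.985, 0.84 to 0.896 and 0.934 to 0.979. Results that turn on these libraries are also given without them.

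The members spanned a wide range of levels, and the tables were normalized separately, so levels of different regions are set side by side without a test. In hypothalamus the highest means were 930.5 FPKM for glucose-phosphate isomerase (Gpi), 586 FPKM for glyceraldehyde-phosphate dehydrogenase (Gapdh), 489.9 FPKM for cytosolic malate dehydrogenase (Mdh1) and 465.6 FPKM for the heart-type lactate dehydrogenase subunit (Ldhb). In hippocampus they were 2368 FPKM for Mdh1, 659.9 FPKM for Ldhb, 456 FPKM for muscle-type phosphofructokinase (Pfkm) and 302 FPKM for phosphoglycerate kinase (Pgk1). Among the 35 members whose means differed less than 10 times between the tables, the ratio of the hypothalamus mean to the hippocampus mean ran between 0.207 for Mdh1 and 3.66 for its mitochondrial counterpart Mdh2. Citrate synthase (Cs), the entry enzyme of the cycle, was close to level between the tables, at 164 FPKM in hypothalamus and 173 FPKM in hippocampus.

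**Figure D1:**
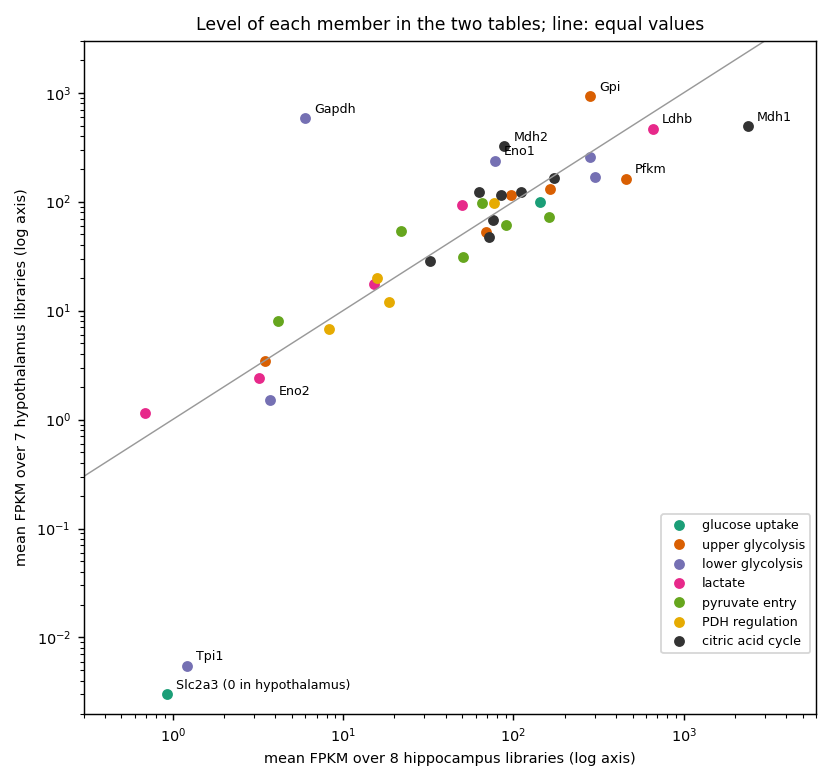
Mean FPKM of each of the 38 listed members over the 7 hypothalamus libraries (vertical, log axis) and the 8 hippocampus libraries (horizontal, log axis), coloured by pathway step, with a line of equal values. Gapdh, at 586 and 5.98 FPKM, lies far above the line, Tpi1 and Slc2a3 lie far below it, and Eno2 is low on both axes.

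Several loci had levels that cannot be taken as those of the gene. Gapdh, a glycolytic enzyme usually abundant in every tissue, averaged 586 FPKM in hypothalamus and 5.98 FPKM in hippocampus, a ratio of 98.1. Triosephosphate isomerase (Tpi1), which interconverts the triose phosphates, averaged 0.00548 FPKM in hypothalamus and 1.22 FPKM in hippocampus. The neuronal glucose transporter Slc2a3 was listed at 0 in every hypothalamus library at both of its loci, and its higher locus averaged 0.924 FPKM in hippocampus.

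The neuronal enolase Eno2 was low in both tables, with means of 1.497 FPKM in hypothalamus and 3.70 FPKM in hippocampus. All 9 neuron markers were measured above 0, and their summed level was 1657 to 1832 FPKM in fructose and 1559 to 1945 FPKM in control hypothalamus, and 2203 to 2651 FPKM in fructose and 2112 to 2851 FPKM in control hippocampus. In RefSeq these 4 genes lie near one another on rat chromosome 4. Of the 42 protein-coding symbols of that stretch in the hypothalamus table, 10 have several loci (23.8%), against 9.096% of all symbols in the table. In hippocampus it was 12 of 48 (25.0%), against 10.7%. Between Grcc10 and Tpi1, 5 of 6 neighbouring symbols had several loci in each table. The 6 include Eno2 and Tpi1 themselves, and their highest means, 1.497 FPKM in hypothalamus and 3.70 FPKM in hippocampus, are those of Eno2. Gapdh and Tpi1 have 1 locus each in both tables. Levels elsewhere on the longer stretch were mixed. Clec4e was at 0 FPKM in both regions, and Mlf2 at 284 FPKM in hypothalamus and 229 FPKM in hippocampus. Whether the locus annotation set these low levels was not tested. Values of Gapdh in hippocampus, and of Tpi1, Slc2a3 and Eno2 in both regions, are therefore given as values of the listed locus only.

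The comparison of fructose with control asks whether feeding changed the RNA of these enzymes. No member passed an adjusted p of 0.05 in either region with limma's moderated test on log2(FPKM + 1), adjusted by the Benjamini-Hochberg method over all loci tested in that region. In hypothalamus 1 of 11498 loci passed (0.0087%), which is not a member, and the smallest adjusted p among the 36 members was 0.9998. At an unadjusted p under 0.05 stood 2 members, Pfkl (higher) and Eno2 (lower), against 3.14% of all loci, of which 1.02% were higher and 2.12% lower. The same 2 were the members whose fructose and control values did not overlap, against 3.33% of all loci. Eno2 reached the filter of 1 FPKM only through its control group, with a mean of 2.33 FPKM against 0.387 FPKM in fructose. The filter thus favoured a lower value in fructose for Eno2, and its place in both counts is no support for a change. In hippocampus none of 11385 loci passed (0%), 92 had an unadjusted p under 0.05 (0.808%, with 0.334% higher and 0.474% lower), and no member was among them. No member had separate groups there either, against 0.668% of loci. Bulk tissue was measured, so fewer cells of a type and less RNA per cell cannot be told apart.

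Log2 fold changes were small and of both signs. In hypothalamus 22 of 36 members were higher in fructose and 14 lower, with a median of 0.011 beside 0.0065 over all loci, of which 51.5% were higher. In hippocampus 14 were higher and 22 lower, with a median of -0.026 beside -0.0038 over all loci, of which 48.6% were higher. The lower members include loci with implausible levels, namely Eno2 in both regions and Gapdh and Tpi1 in hippocampus. Single libraries turned this balance: in hippocampus 22 of 36 members were higher without control replicate 2 (median 0.012) and 19 of 36 without control replicate 3 (median 0.014), and in hypothalamus 15 of 35 without control replicate 3 (median -0.0100) and 16 of 36 without fructose replicate 1 (median -0.040). The members ranged between -1.06 (Eno2) and 0.29 (Pfkl) in hypothalamus, and between -0.41 (Eno2) and 0.24 (Slc2a1) in hippocampus.

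**Figure D2:**
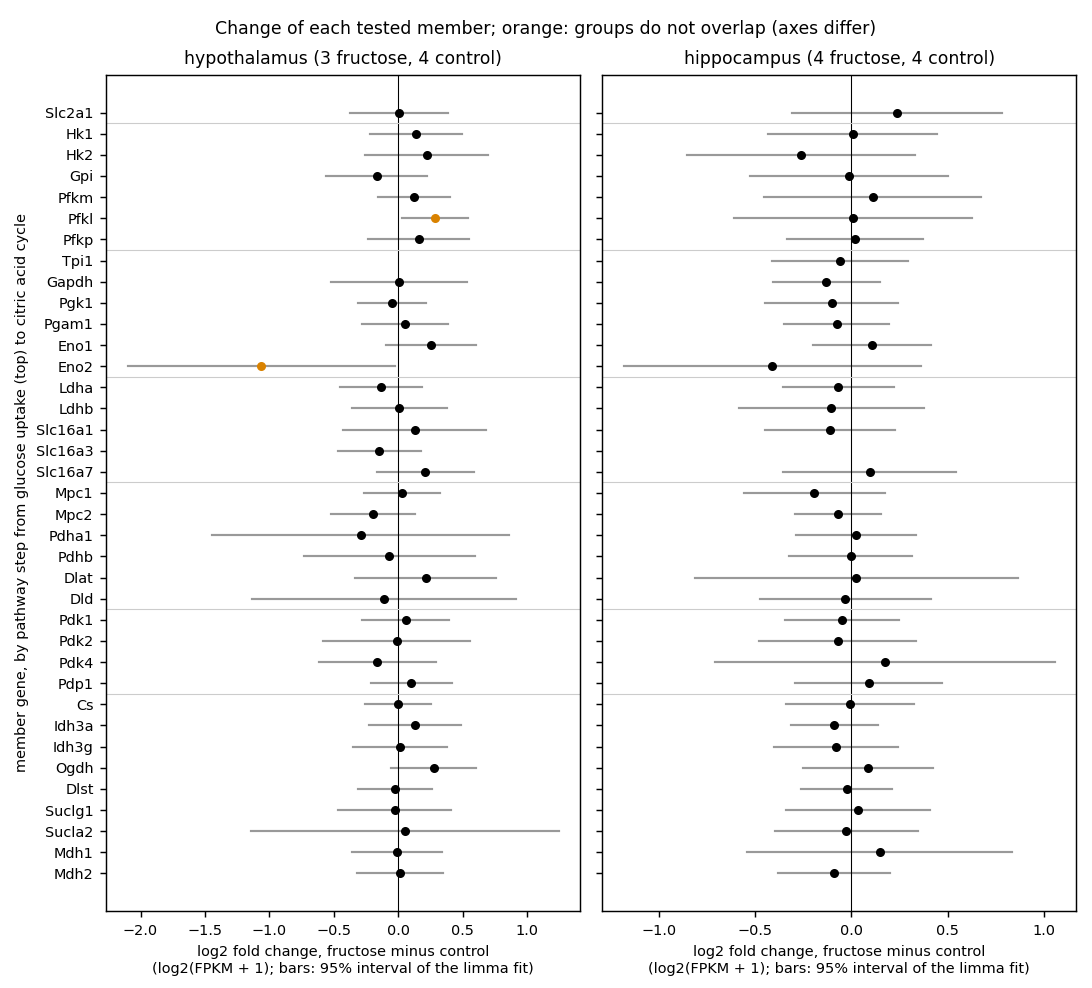
Log2 fold change of each tested member, fructose minus control, on the log2(FPKM + 1) scale, by pathway step and with 95% intervals of the limma fit, on different horizontal axes. In hypothalamus (left) the intervals of Pfkl and Eno2 lie off 0 and their groups do not overlap (orange), while in hippocampus (right) every interval spans 0.

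Glucose uptake was represented by Slc2a1, the transporter of the blood-brain barrier and of astrocytes. It was at 78.2, 107 and 113 FPKM in fructose hypothalamus, against 87.1, 99.8, 94.2 and 111 FPKM in control hypothalamus. The fructose values lay around the control values, with the replicate 1 libraries lowest in each group, and the log2 fold change was 0.0078 ± 0.16 (SE). In hippocampus it was at 206, 139.7, 109.6 and 162 FPKM with fructose, against 116, 108, 113 and 186 FPKM in controls. Fructose replicate 1 and control replicate 4 were the high libraries, the groups overlapped, and the log2 fold change was 0.24 ± 0.24. Without both replicate 1 libraries it was 0.042 ± 0.25. Slc2a3, listed at 0 throughout hypothalamus, was at 0.903, 0.639, 2.31 and 0.688 FPKM in fructose hippocampus and 0.877, 0.843, 0.435 and 0.705 FPKM in control hippocampus, too low to be tested.

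Upper glycolysis had the highest median of any step in hypothalamus, 0.15, with 5 of 6 members higher in fructose. In hippocampus 4 of 6 were higher and the median was 0.0074. The summed level of the step did not follow the median in hypothalamus, at 1362 ± 91.9 FPKM in fructose and 1423 ± 167 FPKM in control libraries. In hippocampus the sum was 1086 ± 76.7 FPKM with fructose and 1060 ± 115 FPKM in controls (SD). The member with the smallest p in hypothalamus was Pfkl, the liver-type subunit of phosphofructokinase, the enzyme of the committed step. Pfkl was at 61.6, 58.0 and 58.6 FPKM in fructose hypothalamus, against 49.3, 51.1, 50.5 and 43.2 FPKM in control hypothalamus. Every fructose library lay above every control library, the replicate 1 libraries included. Its log2 fold change came to 0.29 with an SE of 0.11 (limma, adjusted p = 0.9998), and every fructose library lay above every control for 1.75% of all loci.

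The call at an unadjusted p under 0.05 did not hold in all fits of Pfkl. When single libraries were left out, it held only without control replicate 1 or control replicate 2. Without both replicate 1 libraries its log2 fold change was 0.27 ± 0.12 (limma, adjusted p = 0.541), and with the replicate number as a block it was 0.24 ± 0.099 (limma, adjusted p = 0.773). In hippocampus Pfkl did not separate, at 86.97, 71.2, 70.5 and 47.5 FPKM with fructose and 82.8, 82.1, 74.4 and 40.0 FPKM in controls, where replicate 4 was lowest in both groups. Its log2 fold change there was 0.0075 ± 0.27.

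Phosphofructokinase is built from subunits of the muscle (Pfkm), liver (Pfkl) and platelet (Pfkp) types, and the other subunits had intervals that spanned 0 in hypothalamus. Pfkm was at 185, 161 and 167 FPKM in fructose and 163, 173, 152 and 141 FPKM in control hypothalamus, with a log2 fold change of 0.12 ± 0.12. Pfkp was at 145, 107 and 116 FPKM in fructose and 129, 117, 99.7 and 92.0 FPKM in control hypothalamus, with a log2 fold change of 0.16 ± 0.17. Both sets of values overlapped between the groups. As a share of the summed FPKM of the subunits, Pfkl made up 15.7%, 17.8% and 17.2% in fructose and 14.4%, 15.0%, 16.7% and 15.7% in control hypothalamus. So the shares overlapped although the levels of Pfkl did not. Pfkm was the largest share in both regions, at 48.5 ± 1.13% in fructose and 49.95 ± 1.53% in control hypothalamus, and at 73.2 ± 6.38% in fructose and 71.6 ± 9.44% in control hippocampus (SD).

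The proximal promoters of the phosphofructokinase genes are printed because Pfkl separated between the groups of hypothalamus while Pfkm and Pfkp did not. They are the 250 bases before each start in RefSeq, build GRCr8, which is not the rn5 build of the files, all on the plus strand. Capitals mark ACGTG, the core of hypoxia response elements, and GCGTG, the core of dioxin response elements that hypoxia-inducible factor also binds, each searched on both strands, so CACGT and CACGC are their reverse complements. No matches overlap in the printed stretches.
Pfkl, chr20:10663715-10663964: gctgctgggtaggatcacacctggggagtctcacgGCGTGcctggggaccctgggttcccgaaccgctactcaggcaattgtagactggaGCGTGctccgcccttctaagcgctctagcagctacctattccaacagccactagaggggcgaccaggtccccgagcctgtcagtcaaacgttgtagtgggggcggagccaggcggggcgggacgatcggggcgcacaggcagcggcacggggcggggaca
Pfkm, chr7:131113849-131114098: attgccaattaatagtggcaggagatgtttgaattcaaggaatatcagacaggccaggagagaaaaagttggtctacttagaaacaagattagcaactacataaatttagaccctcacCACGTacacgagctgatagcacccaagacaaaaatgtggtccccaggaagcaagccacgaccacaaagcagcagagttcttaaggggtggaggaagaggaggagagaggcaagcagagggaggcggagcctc
Pfkp, chr17:68639563-68639812: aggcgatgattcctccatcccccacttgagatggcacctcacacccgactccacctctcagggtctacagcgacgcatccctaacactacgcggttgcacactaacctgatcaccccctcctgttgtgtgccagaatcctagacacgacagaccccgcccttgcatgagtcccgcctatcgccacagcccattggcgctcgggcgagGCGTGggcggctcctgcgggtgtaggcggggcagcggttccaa
Pfkl holds GCGTG at 2 places, Pfkp at 1, and Pfkm holds 1 ACGTG and no GCGTG. The E-box CACGTG, which contains ACGTG, is in none of them. Of 33469 RefSeq promoters of this length, 16.6% hold ACGTG, 25.9% GCGTG, 36.7% either and 5.59% CACGTG. The promoter table listed 35 of the 41 members with 38 promoters, of which 24 (63.2%) hold ACGTG or GCGTG. Both motifs contain CG, so their frequency depends on the GC content of a promoter. The median GC content of all promoters was 51.2%, with Pfkl and Pfkp above it and Pfkm below it. The background was not matched to the members for GC content or type of gene. An excess of these motifs in the members was therefore not tested. A match is a description of letters and not a binding site.

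No other member of the upper steps separated between the groups. Hexokinase 1 (Hk1), the main brain hexokinase, averaged 139 ± 18.0 FPKM in fructose and 126 ± 16.7 FPKM in control hypothalamus, and 164 ± 18.1 and 166 ± 38.6 FPKM in hippocampus. Hexokinase 2 (Hk2), the form typical of muscle, was the hippocampal member of this step with the smallest p, at 2.76, 2.72, 3.21 and 3.01 FPKM with fructose and 2.47, 3.44, 2.83 and 7.28 FPKM in controls. Control replicate 4 was more than 2 times any other library, and the log2 fold change of -0.26 ± 0.26 became 0.0099 without it. In hypothalamus Hk2 was at 3.51, 4.66 and 3.22 FPKM with fructose and 4.60, 2.54, 2.89 and 2.59 FPKM in controls. Here control replicate 1 was the high control, and without both replicate 1 libraries the groups no longer overlapped and the log2 fold change was 0.41 ± 0.17 (limma, adjusted p = 0.532). Gpi averaged 867 ± 103 FPKM in fructose and 978 ± 156 FPKM in control hypothalamus, and 280.4 ± 58.2 and 284 ± 61.4 FPKM in hippocampus, where replicate 4 was low in both groups (194 FPKM with fructose and 192 FPKM in control).

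**Figure D3:**
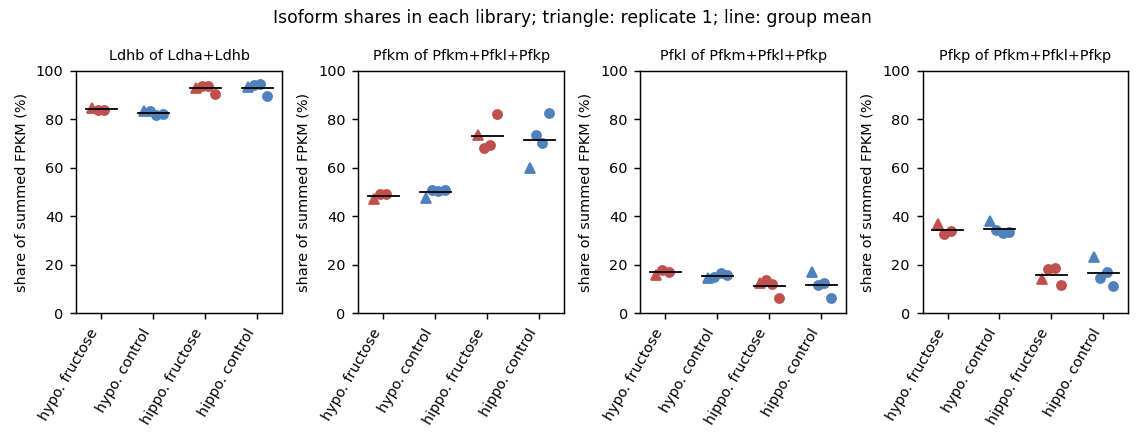
Share of each subunit in the summed FPKM of its family (vertical axes, percent), for each library of the fructose and control groups in hypothalamus and then hippocampus, with the group mean as a line. The shares of Ldhb in fructose hypothalamus lie just above those in control hypothalamus, and the shares of Pfkl overlap between the groups in both regions.

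Lower glycolysis, which turns triose phosphates into pyruvate, had 3 of 5 tested members higher in fructose hypothalamus (median 0.0080) and 1 of 6 higher in fructose hippocampus (median -0.089). The lower ones in hippocampus include Gapdh, Tpi1 and Eno2, whose listed loci cannot be taken as the level of the gene. Of the rest there, Eno1 had a log2 fold change of 0.11, Pgam1 of -0.076 and Pgk1 of -0.10. Gapdh was at 457, 565 and 746 FPKM in fructose hypothalamus and 420.04, 691, 622 and 603 FPKM in control hypothalamus. The replicate 1 libraries were lowest in both groups, and the log2 fold change was 0.0080 ± 0.23. In hippocampus its locus was at 5.71, 6.02, 6.01 and 4.88 FPKM with fructose and 5.17, 6.59, 6.32 and 7.14 FPKM in controls, a log2 fold change of -0.13 ± 0.12. Without both replicate 1 libraries every fructose library of hippocampus lay below every control library for this locus, which was so for 4.05% of loci in either direction.

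Eno1, the ubiquitous enolase, was at 243, 258 and 285 FPKM in fructose hypothalamus and 207, 206, 196 and 274 FPKM in control hypothalamus. Only control replicate 4 reached into the fructose values, and the log2 fold change was 0.26 ± 0.15 (limma, adjusted p = 0.9998). With the replicate number as a block it was 0.36 ± 0.12 (limma, adjusted p = 0.633), which put Eno1 under an unadjusted p of 0.05. In hippocampus Eno1 averaged 80.7 ± 8.48 FPKM with fructose and 75.1 ± 10.7 FPKM in controls.

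Eno2 had the largest fold change of the members at its low locus. It was at 0.652, 0.293 and 0.218 FPKM in fructose hypothalamus, against 2.04, 0.997, 5.57 and 0.706 FPKM in control hypothalamus. The groups did not overlap, although the highest fructose and the lowest control library were close and control replicate 3 stood far above the rest. The log2 fold change was -1.06 ± 0.44 (limma, adjusted p = 0.9998), beside 1.58% of loci with every fructose library below every control. At this low level the fold change depends on the added constant, and it was -1.99 with 0.1 FPKM added in place of 1. Without control replicate 3 the mean of Eno2 was below 1 FPKM and the locus was not tested. Its other locus was at 0.505, 0.383 and 0.980 FPKM in fructose and 0.601, 0.427, 0.257 and 0.755 FPKM in control hypothalamus, where the groups overlapped. In hippocampus the higher locus was at 2.95, 3.03, 3.59 and 1.85 FPKM with fructose and 3.54, 3.64, 8.95 and 2.09 FPKM in controls. These groups overlapped, and the log2 fold change was -0.41 ± 0.34, or -0.083 without control replicate 3. The other hippocampal locus had nearly the same mean, 3.60 FPKM. It was at 0.538, 4.62, 5.60 and 0.668 FPKM with fructose and 3.58, 6.27, 4.20 and 3.35 FPKM in controls. Those groups also overlapped, and the log2 fold change was -0.75 ± 0.50. With both loci added up it was -0.64 ± 0.36 in hippocampus (limma, adjusted p = 0.9998).

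Pgk1, which makes the first ATP of the lower pathway, averaged 166 ± 17.0 FPKM in fructose and 171 ± 6.01 FPKM in control hypothalamus, and 291 ± 40.0 and 313 ± 47.4 FPKM in hippocampus. The phosphoglycerate mutase Pgam1 averaged 261 ± 23.7 and 252 ± 33.8 FPKM in hypothalamus, and 273 ± 26.8 and 287 ± 25.0 FPKM in hippocampus, fructose before control. Neither differed beyond the spread. Tpi1 was at 1.08, 0.997, 1.26 and 1.31 FPKM in fructose hippocampus and 1.61, 1.003, 1.58 and 0.898 FPKM in control hippocampus, and in hypothalamus only control replicate 2 had a value above 0 (0.0384 FPKM).

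**Figure D4:**
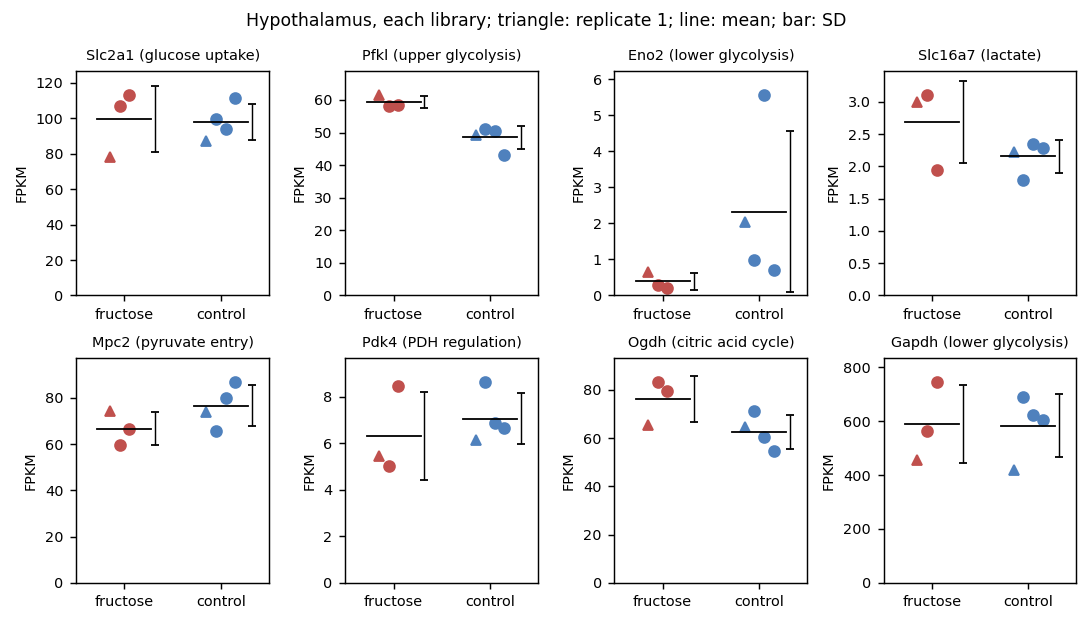
FPKM of each hypothalamus library for the member with the smallest unadjusted p of each pathway step, and for Gapdh, with fructose left of control, the mean as a line, the SD as a bar and replicate 1 as a triangle. Every fructose library lies above every control library for Pfkl and below every one for Eno2, and the groups overlap in the other panels.

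Lactate is made and used by lactate dehydrogenase, a tetramer of Ldha and Ldhb subunits, and crosses membranes through the monocarboxylate transporters Slc16a1, Slc16a3 and Slc16a7. In hypothalamus 3 of 5 of these genes were higher in fructose (median 0.0079), and in hippocampus 1 of 4 (median -0.086). Ldha was at 100.1, 86.4 and 77.7 FPKM in fructose hypothalamus and 89.7, 109, 98.5 and 88.6 FPKM in control hypothalamus, a log2 fold change of -0.13 ± 0.14. Ldhb was at 555, 445 and 404 FPKM in fructose and 452, 547, 444 and 412 FPKM in control hypothalamus, a log2 fold change of 0.0079 ± 0.16. The levels of both subunits overlapped between the groups.

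The share of Ldhb in the summed FPKM of the subunits was 84.7%, 83.7% and 83.9% in fructose hypothalamus, against 83.4%, 83.4%, 81.9% and 82.3% in control hypothalamus. Every fructose share lay above every control share, by as little as the difference between 83.7% and 83.4%. In hippocampus the share was 92.7 ± 1.59% with fructose and 92.8 ± 2.10% in controls (SD), with replicate 4 lowest in both groups, at 90.4% and 89.7%. The share was one of 5 computed in each region, and it was not tested.

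Slc16a7, the high-affinity transporter of neurons, had the smallest p of the lactate genes in hypothalamus. It was at 2.998, 3.11 and 1.95 FPKM in fructose and 2.22, 1.79, 2.34 and 2.28 FPKM in control hypothalamus. Fructose replicate 3 lay among the controls, and the log2 fold change was 0.21 ± 0.16 (limma, adjusted p = 0.9998). In hippocampus it was at 1.97, 3.86, 3.89 and 3.80 FPKM with fructose and 3.95, 2.63, 2.75 and 2.86 FPKM in controls. The replicate 1 libraries ran against the others, as the lowest fructose and the highest control library. Without them every fructose library lay above every control library, and the log2 fold change was 0.37 ± 0.13 (limma, adjusted p = 1) instead of 0.095 ± 0.20. In that setting 1.34% of loci had an unadjusted p under 0.05 and 4.05% had separate groups.

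Slc16a1, the transporter of endothelium and glia, had the smallest p of the lactate genes in hippocampus. It was at 13.0, 12.4, 15.9 and 17.2 FPKM in fructose hippocampus and 13.1, 16.0, 18.8 and 15.3 FPKM in control hippocampus, overlapping groups with a log2 fold change of -0.11 ± 0.15. In hypothalamus it averaged 18.3 ± 4.53 FPKM with fructose and 16.7 ± 4.72 FPKM in controls. Slc16a3, the transporter of glycolytic cells, averaged 1.03 ± 0.243 FPKM in fructose and 1.24 ± 0.146 FPKM in control hypothalamus. At 0.740 ± 0.10 FPKM with fructose and 0.627 ± 0.256 FPKM in controls it was too low to be tested in hippocampus.

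Pyruvate enters the mitochondrion through the carrier formed by Mpc1 and Mpc2 and is oxidised by pyruvate dehydrogenase, whose subunits are Pdha1 and Pdhb (E1), Dlat (E2) and Dld (E3). In each region 2 of 6 genes of this step were higher in fructose, with medians of -0.090 in hypothalamus and -0.017 in hippocampus. Mpc2 had the smallest p in hypothalamus, at 74.2, 59.5 and 66.5 FPKM with fructose and 73.96, 65.6, 80.1 and 86.8 FPKM in controls. The groups overlapped, and the log2 fold change was -0.20 ± 0.14. Mpc1 had the smallest p in hippocampus, at 55.97, 68.0, 73.4 and 48.8 FPKM with fructose and 74.5, 57.6, 68.9 and 79.4 FPKM in controls, overlapping groups with a log2 fold change of -0.19 ± 0.16.

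The subunits of pyruvate dehydrogenase were higher in the replicate 1 libraries of hypothalamus. Pdha1 was at 89.5, 31.0 and 27.2 FPKM in fructose and 102.6, 41.7, 35.2 and 48.4 FPKM in control hypothalamus. The replicate 1 libraries were far above the others in both groups, which overlapped, and the log2 fold change was -0.29 ± 0.50. Within replicates 2 to 4 every fructose library lay below every control library, and the log2 fold change was -0.50 ± 0.16 (limma, adjusted p = 0.480). The block by replicate number gave -0.33 ± 0.10 (limma, adjusted p = 0.624). Both fits put Pdha1 under an unadjusted p of 0.05, as the fit with group alone did not.

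A second locus of Pdha1 ran the other way. It was at 2.76, 41.1 and 48.8 FPKM in fructose and 2.31, 45.8, 32.8 and 38.8 FPKM in control hypothalamus, so it was near absent from the libraries in which the first locus was high. With the loci of a symbol added up, the log2 fold change of Pdha1 was -0.11 ± 0.17 (limma, adjusted p = 0.9997). In the hippocampus table a second Pdha1 locus was likewise at 0.0312 FPKM in fructose replicate 1 and 0.272 FPKM in control replicate 1, beside 6.30 to 13.1 FPKM in the other fructose libraries and 7.55 to 13.5 FPKM in the other controls. Pgam1 had such a second locus in hypothalamus, at 1.28, 37.1 and 79.9 FPKM with fructose and 1.57, 52.2, 47.5 and 126 FPKM in controls. How reads were divided between the loci of a symbol was not tested.

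Pdhb averaged 59.7 ± 24.0 FPKM in fructose and 61.1 ± 16.5 FPKM in control hypothalamus, with 87.3 FPKM in fructose replicate 1 and 85.6 FPKM in control replicate 1. Dld was at 53.5, 22.4 and 16.9 FPKM in fructose and 49.9, 29.0, 28.5 and 18.5 FPKM in control hypothalamus, again highest in replicate 1. Dlat averaged 8.70 ± 2.25 and 7.41 ± 2.12 FPKM in fructose and control hypothalamus. In hippocampus Pdha1, Pdhb and Dld had log2 fold changes between -0.031 and 0.023. Dlat was at 7.63, 2.84, 3.09 and 3.06 FPKM in fructose and 7.16, 3.55, 3.89 and 1.83 FPKM in control hippocampus, with replicate 1 above the others in both groups.

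Pyruvate dehydrogenase is switched off by the kinases Pdk1, Pdk2 and Pdk4 and on by the phosphatase Pdp1. In each region 2 of these 4 genes were higher in fructose and 2 lower, with medians of 0.024 in hypothalamus and 0.022 in hippocampus. Pdk4, the kinase induced by fasting and fatty acids, had the smallest p in hypothalamus, at 5.44, 5.04 and 8.47 FPKM with fructose and 6.13, 8.64, 6.86 and 6.64 FPKM in controls. The groups overlapped, and the log2 fold change was -0.16 ± 0.20. In hippocampus Pdk4 was at 19.3, 5.57, 4.15 and 8.55 FPKM with fructose and 5.98, 6.82, 8.71 and 6.65 FPKM in controls, so the mean of the fructose group (9.40 FPKM) rested on replicate 1. Its log2 fold change was 0.17 ± 0.39 there, and -0.28 ± 0.24 without both replicate 1 libraries.

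Pdp1 had the smallest p of these genes in hippocampus, at 12.1, 20.2, 16.7 and 17.0 FPKM with fructose and 12.4, 17.4, 15.8 and 15.6 FPKM in controls, with replicate 1 lowest in both groups and a log2 fold change of 0.091 ± 0.17. In hypothalamus it averaged 20.7 ± 2.22 FPKM with fructose and 19.2 ± 2.09 FPKM in controls. Pdk2, the most widely expressed kinase, was at 66.9, 104 and 122 FPKM in fructose and 74.5, 114, 86.9 and 112 FPKM in control hypothalamus. Pdk1 averaged 12.3 ± 1.40 and 11.8 ± 1.60 FPKM in fructose and control hypothalamus. Both overlapped between the groups.

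Of the 9 citric acid cycle genes tested, 6 were higher in fructose hypothalamus (median 0.013) and 3 in fructose hippocampus (median -0.025). Ogdh, the E1 subunit of the oxoglutarate dehydrogenase complex, had the smallest p in hypothalamus, at 65.3, 83.2 and 79.7 FPKM with fructose and 64.4, 71.3, 60.4 and 54.6 FPKM in controls. Fructose replicate 1 lay among the controls and the other fructose libraries above all of them. The log2 fold change was 0.27 ± 0.14 (limma, adjusted p = 0.9998), and 0.39 ± 0.14 without both replicate 1 libraries (limma, adjusted p = 0.501). In hippocampus Ogdh averaged 78.7 ± 12.6 FPKM with fructose and 73.6 ± 8.56 FPKM in controls, a log2 fold change of 0.088 ± 0.15. Its partner subunit Dlst had log2 fold changes of -0.022 ± 0.12 in hypothalamus and -0.025 ± 0.10 in hippocampus.

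Idh3a, the catalytic subunit of the NAD-dependent isocitrate dehydrogenase, had the smallest p of the cycle in hippocampus, at 80.7, 79.1, 84.3 and 83.6 FPKM with fructose and 86.1, 90.9, 94.98 and 77.3 FPKM in controls. Control replicate 4 was the lowest of all, and the other controls lay above every fructose library, for a log2 fold change of -0.088 ± 0.099. In hypothalamus Idh3a was at 139, 115 and 111 FPKM with fructose and 125, 123, 92.0 and 105 FPKM in controls, a log2 fold change of 0.13 ± 0.15. Citrate synthase had log2 fold changes of 0.00083 ± 0.11 in hypothalamus and -0.0062 ± 0.15 in hippocampus. It averaged 164 ± 7.80 FPKM in fructose and 164 ± 11.2 FPKM in control hypothalamus.

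The succinyl-CoA ligase subunits carried the replicate 1 difference unequally. Sucla2 was at 100.7, 31.2 and 24.9 FPKM in fructose and 73.5, 39.1, 36.2 and 27.8 FPKM in control hypothalamus, and Suclg1 at 163, 115 and 93.2 FPKM with fructose and 125, 128, 122 and 116 FPKM in controls. For Suclg1 only fructose replicate 1 was high. The malate dehydrogenases overlapped between the groups. Mdh1 averaged 489.8 ± 84.7 and 490.01 ± 43.5 FPKM, and Mdh2 324 ± 28.1 and 323 ± 44.2 FPKM, in fructose and control hypothalamus. In hippocampus Mdh1 was at 1771, 2259, 2489 and 3320.3 FPKM with fructose and 1296, 2108, 2557 and 3141 FPKM in controls. Replicate 1 was lowest and replicate 4 highest in each group.

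The replicate 1 pattern was counted over the members. In hypothalamus both replicate 1 libraries lay above all others for 12 of 36 members (28% of all loci) and below all others for 5 (23.2% of loci). The 12 were Cs, Dlat, Dld, Dlst, Idh3a, Mdh1, Pdha1, Pdhb, Pdk1, Pfkp, Slc16a1 and Sucla2, and the 5 were Gapdh, Gpi, Hk1, Pdk2 and Slc2a1. In hippocampus it was 2 members above (Dlat and Pfkl; 9.52% of loci) and 4 below (Dld, Mdh1, Pdp1 and Sucla2; 18.8% of loci).

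**Figure D5:**
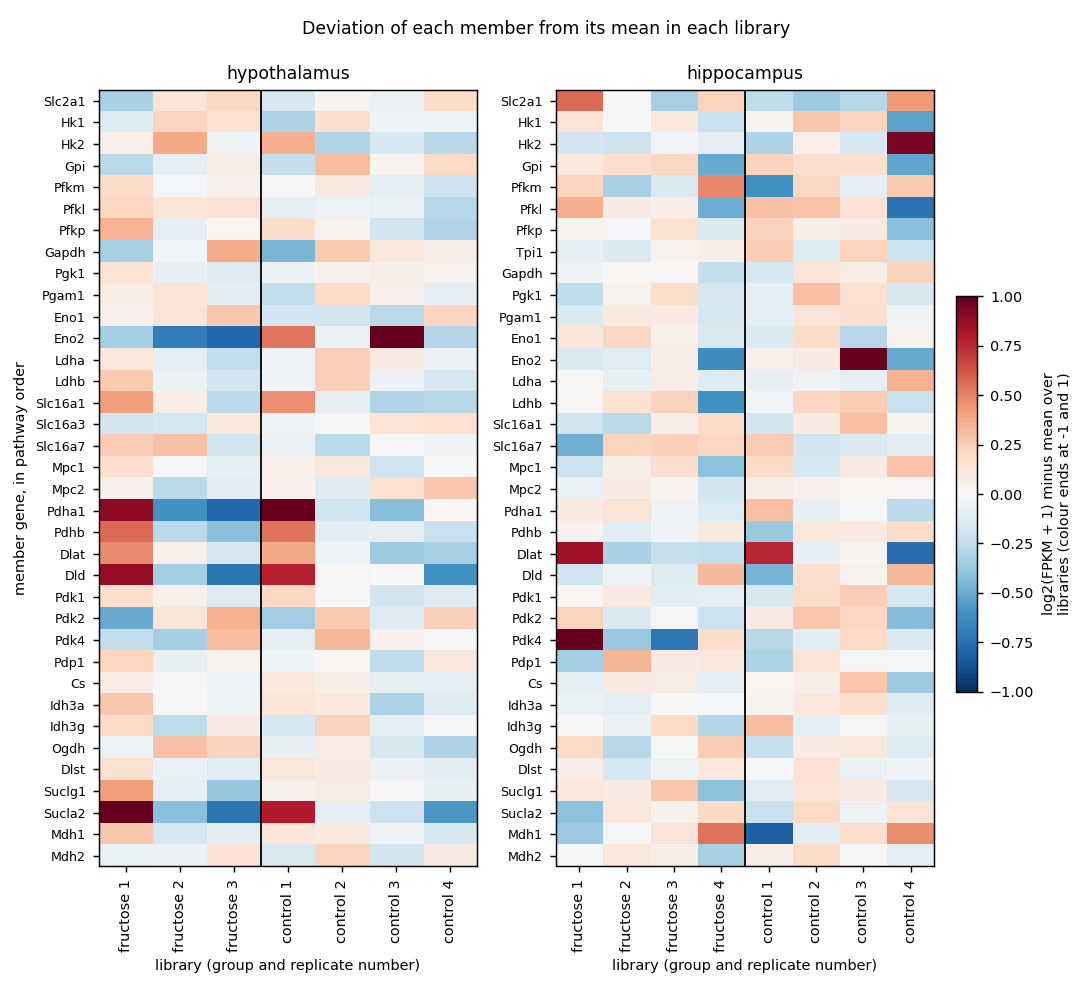
Deviation of log2(FPKM + 1) of each tested member from its mean over the libraries of the region, by library (columns, fructose left of control) and member (rows, in pathway order), with colour from -1 to 1. In hypothalamus (left) the replicate 1 columns of both groups are red for Pdha1, Pdhb, Dlat, Dld and Sucla2, and in hippocampus (right) the replicate 4 columns of both groups are blue for Gpi, Pfkl and Ldhb and red for Mdh1.

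Without both replicate 1 libraries, which leaves 2 fructose and 3 control libraries of hypothalamus, 3 members had an unadjusted p under 0.05 (Pdha1, Ogdh and Hk2), against 9.28% of loci. Separate groups were then found for 9 members, against 27.6% of loci. Of these, Pfkl, Ogdh and Hk2 were higher in fructose, and Pdha1, Pdhb, Ldha, Pgk1, Suclg1 and Eno2 were lower. The smallest adjusted p of a member was 0.480.

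The change in hypothalamus was compared with that in hippocampus as an interaction over 9931 symbols. None passed an adjusted p of 0.05 with limma (0%), 229 had an unadjusted p under 0.05 (2.31%), and none of the 35 members tested was among them. Other fits put some members under that threshold. Pdha1 was under it with the replicate block (3.36% of symbols), with a batch term for replicate 1 (3.8%) and without the replicate 1 libraries (3.86%). Pfkl was under it without control replicate 4 of hippocampus (4.19%), and Hk2, Ogdh and Slc16a1 with array weights (18.4%). The median difference of the 35, hypothalamus minus hippocampus, was 0.081 on the log2 scale beside 0.021 over all symbols. The 35 include the listed loci of Gapdh and Eno2. Single libraries turned the balance of the members within each region, so this median is a description only. The smallest p belonged to Hk2, with a change of 0.22 in hypothalamus and -0.26 in hippocampus, a difference of 0.49 ± 0.34 (limma, adjusted p = 0.9999). Idh3a followed with 0.13 and -0.088, a difference of 0.22 ± 0.18, and Eno2 with -1.06 and -0.41, a difference of -0.65 ± 0.57. For Pfkl the difference was 0.28 ± 0.32 (limma, adjusted p = 0.9999), so its separation was not shown to be particular to hypothalamus.

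Another 62 genes of the same pathways, not members, were counted for comparison. In hypothalamus 44 of them were tested, of which 27 were higher and 17 lower in fructose. None passed limma's test after adjustment, and 3 stood under an unadjusted p of 0.05, against 3.14% of all loci. The 3 were Gpt2 (higher), Slc2a4 (lower) and Eno3 (lower). Eno3 had a log2 fold change of -0.48 ± 0.19, and its groups overlapped. In hippocampus 46 were tested, with 22 higher, 24 lower and none at either threshold (0.808% of all loci at the unadjusted one).

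The groups of hypothalamus did not overlap for 4 of these 44 genes, against 3.33% of all loci. Gpt2, the mitochondrial alanine aminotransferase that makes pyruvate from alanine, was at 15.3, 15.6 and 14.7 FPKM with fructose and 11.8, 10.4, 9.56 and 9.73 FPKM in controls, a log2 fold change of 0.51 ± 0.12 (limma, adjusted p = 0.9998). Pfkfb3, whose product makes the activator of phosphofructokinase, was at 9.38, 12.3 and 10.1 FPKM with fructose and 8.52, 9.17, 9.02 and 8.36 FPKM in controls, a log2 fold change of 0.24 ± 0.13. Both were higher in every fructose library, as Pfkl was.

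The insulin-responsive glucose transporter Slc2a4 was at 0.940, 0.897 and 1.31 FPKM in fructose hypothalamus and 1.57, 1.85, 2.16 and 2.495 FPKM in control hypothalamus, a log2 fold change of -0.55 ± 0.16 (limma, adjusted p = 0.9998). The phosphoglucomutase Pgm2 was at 8.95, 7.57 and 7.93 FPKM with fructose and 10.9, 9.30, 9.61 and 9.52 FPKM in controls, a log2 fold change of -0.24 ± 0.12. Both were lower in every fructose library. In hippocampus the groups of 1 of the 46 genes did not overlap, against 0.668% of loci. This was Pgm1, the main phosphoglucomutase. It was at 35.4, 29.9, 31.6 and 34.2 FPKM with fructose and 35.6, 36.9, 37.8 and 66.8 FPKM in controls, where control replicate 4 stood far above the others, and the log2 fold change was -0.38 ± 0.20.

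Markers of some cell types lay mostly to one side in hypothalamus beside these values, none of them past an adjusted p of 0.05 with limma. Of 8 astrocyte markers 6 were higher in fructose (median log2 fold change 0.27), with a summed level of 1360 to 1830.2 FPKM in fructose and 1169 to 1524 FPKM in control libraries and no marker at 0. Of 6 ependymal markers 5 were higher (median 0.61; 71.2 to 87.9 FPKM in fructose and 53.1 to 64.6 FPKM in control libraries). Of 10 endothelial markers 2 were higher and 8 lower (median -0.26; 147 to 195 FPKM in fructose and 167 to 209.6 FPKM in control libraries). Of 8 mural markers 6 were lower (median -0.59; 235 to 427 FPKM in fructose and 351 to 695 FPKM in control libraries, with no marker at 0). All 10 meningeal markers tested were lower (median -1.43, 50.1 to 214 FPKM in fructose and 208 to 381 FPKM in control libraries, with Col1a2 at 0). An unadjusted p under 0.05 with limma was reached in hypothalamus by 7 meningeal and 4 ependymal markers, against 3.14% of all loci. The other lists had 0 (neuron) to 3 (mural) such markers. In hippocampus all 10 meningeal markers were higher (median 1.21; 187 to 689 FPKM in fructose and 45.7 to 452 FPKM in control libraries), and 7 of 9 endothelial markers (median 0.13; 214 to 257 FPKM in fructose and 193 to 267 FPKM in control libraries). Of 7 mural markers 6 were higher there (median 0.19, 358 to 1166 FPKM in fructose and 152 to 1681 FPKM in control libraries), and all 8 microglia markers were lower (median -0.086, 262 to 345 FPKM in fructose and 301 to 378 FPKM in control libraries). Of 8 astrocyte markers 6 were lower in hippocampus (median -0.061), against the direction in hypothalamus. Oligodendrocyte markers were lower for 7 of 8 in hippocampus (median -0.058) and 6 of 8 in hypothalamus (median -0.028). Of 9 neuron markers 4 were higher in hippocampus (median -0.050) and 5 in hypothalamus (median 0.0044). Ependymal markers were lower for 4 of 6 in hippocampus (median -0.14), and microglia markers higher for 5 of 8 in hypothalamus (median 0.043). Choroid plexus markers were higher for 4 of 5 in hippocampus (median 0.11) and 3 of 5 in hypothalamus (median 0.18). Their sums varied widely in hippocampus, at 1484 to 5760 FPKM in fructose and 1184 to 7531 FPKM in control libraries. In hypothalamus they were 19.15 to 25.7 FPKM in fructose and 21.5 to 95.8 FPKM in control libraries. The part of these cell types in the values of Pfkl, Slc2a1, Slc2a4 and the other genes was not tested.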

How the data were processed

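The authors deposited 1 table per region with FPKM values and a status flag for each locus and library, per the file headers. Cufflinks, Cuffdiff, TopHat, TopHat2, Bowtie and Bowtie2 are named without versions or roles, and rn5 as the build, per the submitters' processing notes. Per the labels' protocols, RNA was enriched by poly-A selection and sequenced on a HiSeq 2000, with CASAVA 1.8.2. FPKM sums per library were 435105 to 492778 in hypothalamus and 353703 to 402099 in hippocampus. The tables hold no read counts, so depth is unknown and no count model was fitted.

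Loci with a mean of at least 1 FPKM over the libraries of a region were tested on log2(FPKM + 1), which understates changes of low genes, with limma 3.58.1 (trend in the prior variance, group as the only term) in R 4.3.3 and Benjamini-Hochberg adjustment. The tables were joined by symbol for the difference between regions. Hypothalamus was planned as 4 against 4 libraries and run as 3 against 4. Idh3a had a status other than OK in hippocampus and was kept. The members, gene lists and tests were chosen with earlier results of these data known. Values of every library are given for members whose groups do not overlap, for the member with the smallest p of each step and for loci with implausible levels. Errors are SD of FPKM and SE of log2 fold changes. The fit was tested on simulated data with independent errors in each library and changes larger than those of most members. That test did not cover smaller changes or the difference of the replicate 1 libraries. Deviations from group means of same-numbered libraries correlated at 0.85, 0.49 and 0.46 in hypothalamus and 0.89, 0.21, 0.48 and 0.41 in hippocampus, all over 0.1. A fit blocked by replicate number, which comes from the labels, was therefore run as an alternative. The values given first come from the fit without the block. Computed without replicate 1 the correlations were 0.27 and 0.036 in hypothalamus and -0.23, 0.40 and 0.088 in hippocampus. These are not all over 0.1, so pairing of the samples beyond replicate 1 was not shown. Alternatives were another pseudocount (0.1), other filters, each library left out, both replicate 1 libraries left out, a replicate block, a batch term for replicate 1, median-ratio scaling, quantile normalization, array weights and summed loci.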

Additional observations from a re-analysis of the deposited data

Results flagged for a closer look

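For 8 of the 108 combinations of a member and a group with 4 libraries, the highest or lowest library stood apart from the others by Dixon's criterion at 95%, which chance gives in about 1 of 20 groups. In hippocampus fructose replicate 1 was the highest of its group for Dlat (7.63 FPKM) and the lowest for Slc16a7 (1.97 FPKM). Control replicate 4 of hippocampus was the lowest of its group for Gpi (192 FPKM) and the highest for Ldha (63.6 FPKM) and Slc2a1 (186 FPKM). In hypothalamus control replicate 1 was the highest of its group for Hk2 (4.60 FPKM) and Pdhb (85.6 FPKM), and control replicate 4 for Eno1 (273.8 FPKM). The fructose group of hypothalamus has 3 libraries and was not checked in this way.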

How the results depend on the processing

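No member passed an adjusted p of 0.05 with limma under any alternative run, and the members' medians moved by less than the spread between libraries. In hypothalamus the 1 locus past the adjusted threshold became 0 with a filter of 5 FPKM and 2 without both replicate 1 libraries and 2 with the replicate block, and it ranged from 0 to 2 when single libraries were left out. In hippocampus leaving out single libraries gave 0 to 1 loci, with 1 only without control replicate 3. The 2 members of hypothalamus at an unadjusted p under 0.05 became 1 with a filter of 5 FPKM (2.39% of loci) and 1 with quantile normalization (3.03%). With the replicate block they were 3 (Eno2, Eno1 and Pdha1, without Pfkl, against 6.6% of loci). With a batch term for replicate 1 they were 3 (Pfkl, Eno2 and Pdha1, against 7.71% of loci). With array weights they were 6 (Mpc2, Ogdh, Pfkl, Hk2, Eno2 and Eno1). There 18.3% of loci reached that threshold and the smallest adjusted p of a member with limma was 0.144. The count ranged from 0 to 2 when single libraries were left out. It was 0 without fructose replicate 2, fructose replicate 3 or control replicate 3. Only Ogdh was left without fructose replicate 1 (5.89% of loci), and only Pfkl without control replicate 1 (5.22%). Pfkl and Eno2 stayed without control replicate 2 (3.08%), and Eno2 and Eno1 were the 2 without control replicate 4 (1.67%). In hippocampus the count was 1, Slc16a7, without both replicate 1 libraries. For the difference between regions, 336 symbols passed with array weights, none of them a member, and 0 to 1 when single libraries were left out, with 1 only without control replicate 3 of hypothalamus. Signs turned for some values near 0 when single libraries were left out. Pdp1 in hippocampus ranged from -0.0081 to 0.22 (negative without fructose replicate 2 or control replicate 1, -0.00045), Hk2 in hippocampus from -0.41 to 0.0099 (positive without control replicate 4), Slc2a1 in hypothalamus from -0.094 to 0.17 (negative without fructose replicates 2 or 3 or control replicates 1 or 3), and Gapdh in hypothalamus from -0.18 to 0.18 (negative without fructose replicate 3 or control replicate 1, -0.14) and to -0.088 with array weights. The cause was not tested. The replicate block raised the loci at an unadjusted p under 0.05 to 6.6% in hypothalamus and 1.78% in hippocampus and changed no member's call at the adjusted threshold. Depth is unknown, so the counting error behind low values could not be set beside these differences.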
